A study of Mus musculus with 6 samples.

Results

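The mitochondrial ribosomal proteins described here are the 78 genes of the deposited count table whose symbol is Mrpl or Mrps followed by a number and at most 1 letter, and whose counts summed over the 6 libraries reached 60. They were taken from 17191 genes in all. By symbol, 49 belong to the large subunit and 29 to the small subunit. All rows that matched the symbol pattern passed the count minimum, the closest being Mrps12 with 812 counts and Mrpl47 with 847. Messenger RNA was profiled in cells from subcutaneous tumours of the murine colorectal carcinoma line CT26 in female BALB/c mice aged 6 to 8 weeks. Treatment began at a tumour volume of 100 to 200 mm3 and lasted 3 weeks. The vehicle group had 3 libraries, and the TP-18 group had 3 libraries from mice dosed orally once daily at 50 mg/kg. TP-18 is known here only by its code name, and both groups carried the same tumour line and no stated genetic change in the host.

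Mitochondria translate the few messenger RNAs of their own genome on a dedicated ribosome, the mitoribosome, and these mRNAs encode core subunits of the respiratory chain and ATP synthase. The ribosomal RNAs of the mitoribosome come from mitochondrial DNA, while every one of its proteins is encoded in the nucleus, made in the cytosol and imported. Part of these proteins descend from bacterial ribosomal proteins and the rest were acquired by mitochondria. The large subunit joins amino acids into a chain, and the small subunit holds the messenger RNA and reads the codons.

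Which cells were collected is given differently in different labels. The design text speaks of macrophages positive for CD11b, F4/80 and CD206 from a flow sorter, the protocol of CD11b+ cells from bead selection, and the characteristics of each sample of the tumour line. The 10 macrophage markers examined were all tested, with summed levels of 3461 to 7270 CPM per library (counts scaled to a common library size with TMM, a factor per library that aligns the bulk of genes). The 4 detected epithelial markers summed to 246.7 to 530.4 CPM, of which Krt20 alone had 239.3 to 521.5 CPM. Krt18 reached at most 6.99 CPM, Cdh1 2.29 CPM and Krt8 1.57 CPM, while Epcam and Krt19 were too low to be tested. The libraries held 16371128 to 17597645 counts, and the 78 genes took 0.168% to 0.233% of them. TMM factors were 0.924 to 0.962 in vehicle and 1.05 to 1.07 in TP-18 libraries, so the scaling itself moved with the group. The labels do not say that the libraries came from separate mice, so the p-values rest on a spread between libraries that may be technical. Within a group, pairs of libraries differed with a chi-square of 27.9 to 80 per degree of freedom over genes, where sampling of counts alone gives about 1.

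Whether TP-18 changed the mitoribosomal genes was asked with edgeR's quasi-likelihood test over 12721 genes, with Benjamini-Hochberg adjustment and a threshold of 0.05. None of the 78 genes passed it: 0 of 49 in the large and 0 of 29 in the small subunit, where 0.11% of all tested genes passed. DESeq2 also called 0 of them, against 3.69% of all genes to which it gave an adjusted p. At an unadjusted p under 0.05 there was 1 of the 78, Mrpl33, which was lower, against 16.3% of all tested genes in either direction and 8.7% in the lower direction, and 0 were higher, against 7.56%. Every TP-18 library lay beyond every vehicle library for 5 genes, against 23.3% of all tested genes. Mrpl1 was the one on the higher side, and Mrpl30, Mrpl33, Mrpl50 and Mrps12 were on the lower side. In a bulk sample, fewer cells of a type and less RNA per cell cannot be told apart.

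The fold changes were small on both sides of 0. The median log2 fold change was -0.01 in the large subunit (23 genes above 0 and 26 below) and -0.04 in the small subunit (11 above and 18 below), beside 0.02 over all tested genes, of which 52.6% were above 0. Single genes ran from -0.43 for Mrpl33 to 0.39 for Mrpl47. The median standard error was 0.185 on the log2 scale. Pointwise 95% intervals, not adjusted for the number of genes, lay wholly within a 1.5-fold change for 45 of the 78 genes, 29 of the large and 16 of the small subunit. They lay within a 2-fold change for 77, the exception being Mrpl49, whose interval reached 1.12. The directions depend on the scaling: with library totals in place of TMM, the median of all tested genes moved from 0.02 to 0.20, and the medians became 0.17 in the large and 0.14 in the small subunit. Relative to all tested genes the large subunit stayed at -0.03 and the small subunit at -0.06 under both.

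**Figure D1:**
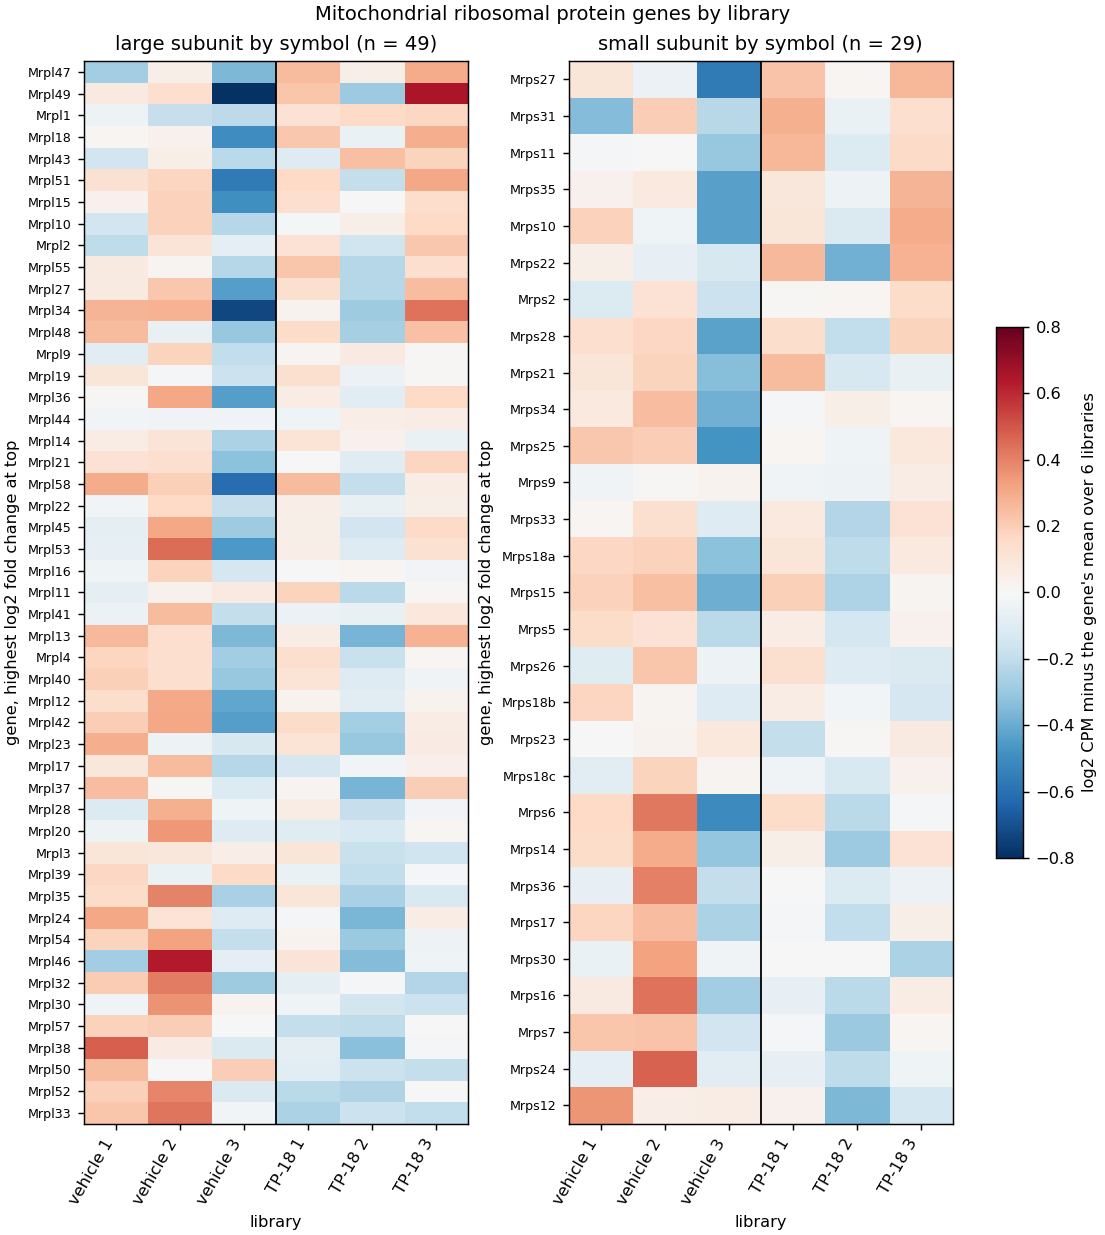
Log2 CPM of each of the 78 genes in each of the 6 libraries, as the difference from the gene's mean over the libraries (colour scale, log2), for the large (n = 49) and small (n = 29) subunit by symbol, ordered by fold change. Most rows share the same columns of colour: vehicle 3 and TP-18 2 are blue and vehicle 2 is red, within both groups.

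**Figure D2:**
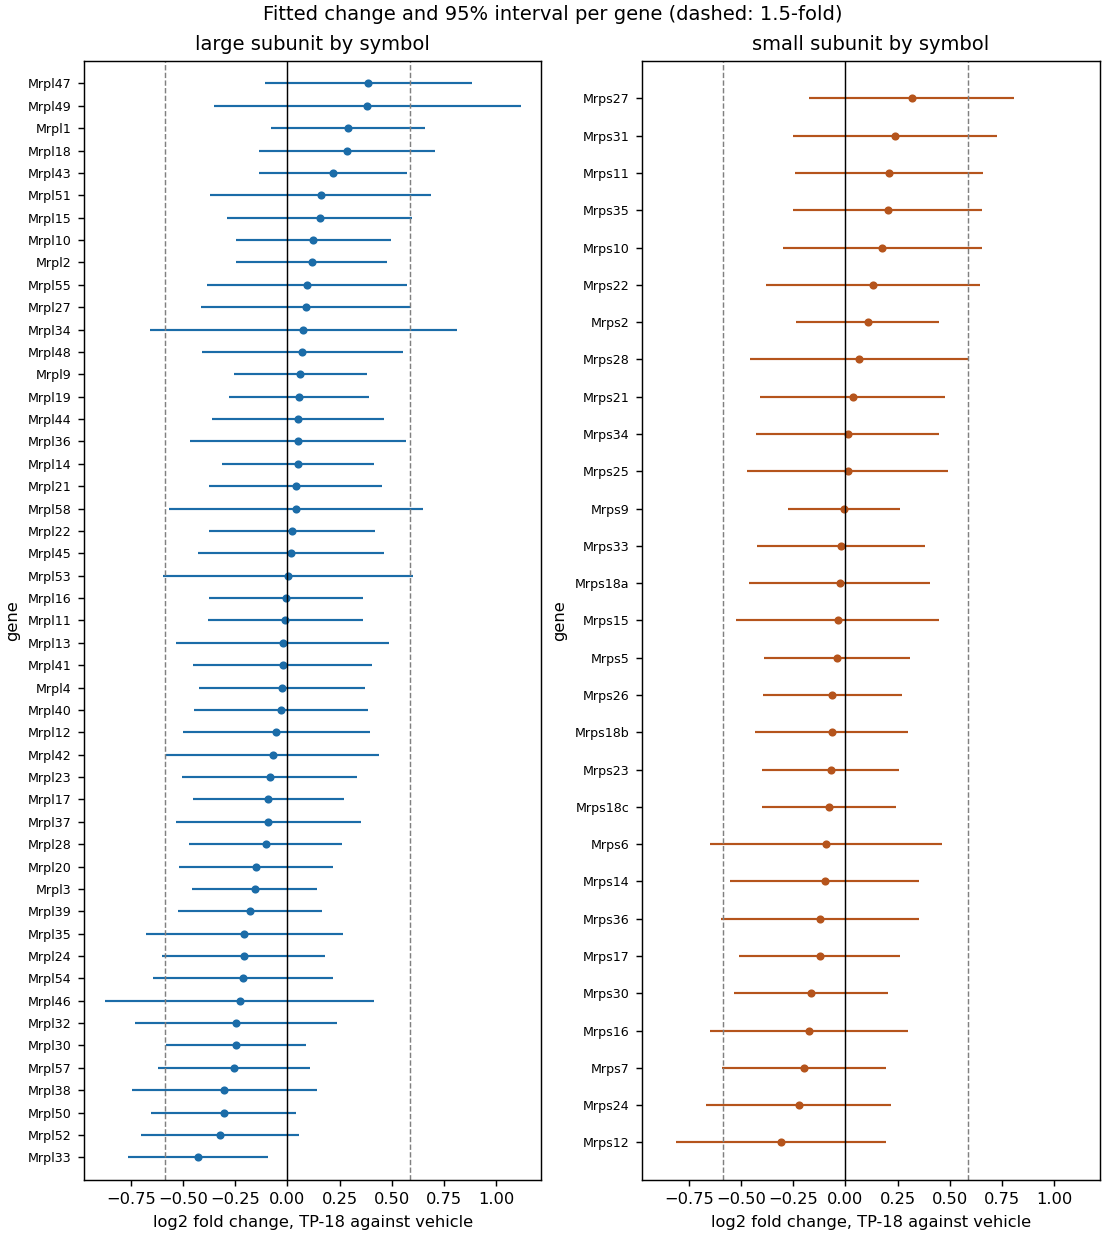
Fitted log2 fold change of TP-18 against vehicle (points) with the pointwise 95% interval (lines) for each gene, dashed lines at a 1.5-fold change. The intervals include 0 for all genes except Mrpl33.

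Some genes at the ends of these orders, picked among those with a match to the letters given below, are shown with the DNA around their start sites. The nuclear genes of mitochondrial proteins are textbook targets of the activators NRF1 and GABP (also called NRF2, an ETS family factor). Mrpl33, Mrpl52 and Mrpl30 are among those with the lowest fold changes, and Mrps27 has the highest of the small subunit. Each stretch runs from 120 bases before the RefSeq start to 30 bases after it (GRCm38.p6), 5′ to 3′ along the gene. Capitals mark matches on either strand to GCGCA and GCGC with any 1 base between them (NRF1), CCGGAAG (ETS factors) or AAGATGGCG (YY1, a zinc finger factor); CTTCCGG is the ETS match read from the other strand.
Mrpl33, chr5:31613831-31613980, plus strand: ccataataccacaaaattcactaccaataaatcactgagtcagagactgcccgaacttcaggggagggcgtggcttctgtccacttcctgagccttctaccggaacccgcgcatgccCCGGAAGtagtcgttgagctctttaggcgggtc
Mrpl52, chr14:54426789-54426938, plus strand: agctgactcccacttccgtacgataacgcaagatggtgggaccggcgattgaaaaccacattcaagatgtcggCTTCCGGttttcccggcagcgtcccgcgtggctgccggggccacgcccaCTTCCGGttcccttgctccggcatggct
Mrpl30, chr1:37890357-37890506, plus strand: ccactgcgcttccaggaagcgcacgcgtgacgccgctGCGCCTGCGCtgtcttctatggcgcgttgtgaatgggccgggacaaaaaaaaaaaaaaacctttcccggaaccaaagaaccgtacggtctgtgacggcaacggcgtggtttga
Mrps27, chr13:99344666-99344815, plus strand: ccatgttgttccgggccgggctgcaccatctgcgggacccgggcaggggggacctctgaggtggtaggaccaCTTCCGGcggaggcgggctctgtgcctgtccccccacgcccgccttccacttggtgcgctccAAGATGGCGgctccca
Mrpl33 held 1 ETS match, which spans the start site. Mrpl52 held 2, of which the later one lies after the start site. Mrpl30 held 1 NRF1 match, and Mrps27 held 1 ETS match and 1 YY1 match that lies after the start site.

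Among the 69 of the 78 genes with a RefSeq window of 250 bases before to 50 after the start, the NRF1 letters occurred in 13 (18.8%), against 11.3% of the tested genes with a window. The ETS letters occurred in 26 (37.7%), against 19.8%, and the YY1 letters in 8 (11.6%), against 3.5%. At least one of the NRF1 and ETS matches was present in 35 genes (50.7%), against 28.5% of tested genes and 14.0% of all RefSeq genes in the table. By subunit this was 23 of 43 genes in the large and 12 of 26 in the small. The letters GGGCGG of the GC box went the other way, in 49.3% against 67.5%, and TATAAA occurred in 5 genes (7.25%, against 9.01%). The median GC content of the windows was 58.7%, beside 60.3% in tested genes. These shares describe letters, not binding, and were not tested.

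Many of the genes share their start region with a neighbour. A protein-coding gene on the opposite strand started within 1000 bases upstream (or with at most 200 bases of overlap) of 23 of the 78 genes (29.5%), against 11.9% of 12494 tested protein-coding genes. The partners included other genes of mitochondria and translation. Mrps12 starts 172 bases from Sars2, the mitochondrial seryl-tRNA synthetase, and Mrps27 starts 81 bases from Ptcd2, a mitochondrial RNA-binding protein. Mrpl49 starts 59 bases from Fau, which encodes a cytosolic ribosomal protein. The 23 genes, counted on GENCODE starts, leave out Mrpl46 and Mrps11, whose GENCODE models overlap too far on chromosome 7, with 173 shared exonic bases. In RefSeq their starts lie 41 bases apart and face away from each other, so a large and a small subunit protein leave from the same short stretch.

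In the large subunit, Mrpl33, a conserved protein of the family bL33, had levels of 67.5, 77.8 and 57.04 CPM in vehicle libraries 1 to 3 and 48.6, 51.4 and 50.6 CPM under TP-18 1 to 3. All TP-18 values were below all vehicle values, and the TP-18 libraries were close to each other while the vehicle libraries were spread. Group means with their SD (n = 3 in each group) were 67.5 ± 10.4 and 50.2 ± 1.43 CPM. The log2 fold change, here and throughout with its standard error, was -0.43 ± 0.14 (edgeR adjusted p = 0.238). With each of the 6 libraries left out in turn it lay between -0.55 and -0.33, and with library totals as the scaling at -0.25. Once the trend of expression on gene length and GC content was removed in each library it was 0.04. Mrpl33, with a length of 466 bases derived from the deposited values, is one of the shortest of the 78. Its GENCODE locus (Entrez 66845), protein-coding, lies on chromosome 5 at 31596935 to 31664384. That model shares 261 bases, 3.56% of its exonic bases, with Gm43809. The gene model counted by the authors may differ from it.

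The other genes whose groups did not overlap, and the gene with the highest fold change in each subunit, are likewise single protein-coding loci on GRCm38. Mrpl1 (Entrez 94061) lies on chromosome 5 at 96209493 to 96266727, Mrpl30 (107734) on chromosome 1 at 37890477 to 37898535 and Mrpl50 (28028) on chromosome 4 at 49512596 to 49521093. Mrps12 (24030) lies on chromosome 7 at 28739641 to 28741820, Mrpl47 (74600) on chromosome 3 at 32725397 to 32737605 and Mrps27 (218506) on chromosome 13 at 99344786 to 99415562.

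The central protuberance, the crest of the large subunit that faces the small one, was represented by 8 genes, 4 above and 4 below 0 (median 0.01). Mrpl52 had 48.7, 56.1 and 39.6 CPM under vehicle and 36.8, 36.1 and 42.6 CPM under TP-18. TP-18 3 lay above vehicle 3, so the groups overlapped, and the log2 fold change was -0.32 ± 0.16 (edgeR adjusted p = 0.373). Mrpl18, of the uL18 family, had 46.5, 47.3 and 32.6 CPM under vehicle and 53.4, 44.3 and 56.2 CPM under TP-18, with TP-18 2 below 2 of the vehicle libraries, a log2 fold change of 0.29 ± 0.18 (edgeR adjusted p = 0.469). Mrpl58, also known as ICT1, a peptidyl-tRNA hydrolase built into the ribosome, had 19.6, 18.2 and 10.4 CPM under vehicle and 19.0, 14.0 and 16.6 CPM under TP-18. Its values overlapped throughout, with a log2 fold change of 0.04 ± 0.26. Mrpl46 ranged from 9.04 to 17.0 CPM within vehicle alone, and its log2 fold change was -0.23 ± 0.28, while that of Mrps11 across the shared start region was 0.21 ± 0.19.

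The stalks are the mobile arms that meet tRNAs and translation factors, and 3 of their 6 genes were above and 3 below 0 (median -0.004). Mrpl1, of the L1 stalk, had 13.4, 12.1 and 11.9 CPM under vehicle and 14.9, 15.4 and 15.5 CPM under TP-18. All TP-18 values were above all vehicle values, with a log2 fold change of 0.29 ± 0.16 (edgeR adjusted p = 0.409). Mrpl12, the stalk protein that contacts translation factors, had 40.6 ± 9.89 CPM under vehicle and 39.2 ± 1.81 CPM under TP-18, a log2 fold change of -0.05 ± 0.19. Its vehicle values alone ran from 29.6 to 48.7 CPM and enclosed all TP-18 values.

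Around the exit tunnel, through which the new chain leaves, 3 of 6 genes were above and 3 below 0 (median -0.03). Mrpl47, of the uL29 family at the tunnel mouth, had 6.64, 8.31 and 6.29 CPM under vehicle and 9.60, 8.30 and 9.88 CPM under TP-18. TP-18 2 was level with vehicle 2, and the other TP-18 libraries were above every vehicle library. Its log2 fold change of 0.39 ± 0.21 was the highest of the 78 (edgeR adjusted p = 0.410), and it was 0.65 after the length and GC trend was removed. Mrpl47 shares 13.9% of its exonic bases with Ndufb5 and 10.2% with Actl6a, both on the opposite strand, and the sources used here do not say whether strand was used in counting. The 4 genes at the peptidyl transferase centre, where the peptide bond forms, had a median of 0.04.

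Among the other large subunit genes, Mrpl50 had 23.4, 19.6 and 22.4 CPM under vehicle and 18.4, 17.4 and 17.1 CPM under TP-18. All TP-18 values were lower, with a log2 fold change of -0.31 ± 0.15 (edgeR adjusted p = 0.360). Mrpl30 had 72.8, 95.6 and 76.2 CPM under vehicle and 72.8, 67.5 and 66.1 CPM under TP-18. Its groups did not overlap only because TP-18 1, at 72.78 CPM, was just under vehicle 1, at 72.84 CPM, and the log2 fold change was -0.25 ± 0.14 (edgeR adjusted p = 0.436). Mrpl43 had a log2 fold change of 0.22 ± 0.15, and 33.4% of its exonic bases are shared with Twnk, the mitochondrial DNA helicase, on the opposite strand. The widest spreads within groups were those of Mrpl49 and Mrpl34. Mrpl49 had 17.3, 18.1 and 9.53 CPM under vehicle and 19.2, 13.5 and 25.8 CPM under TP-18, and Mrpl34 had 14.0, 14.1 and 7.01 CPM and then 11.9, 9.55 and 15.7 CPM. In both, vehicle 3 was the lowest vehicle library and TP-18 2 the lowest TP-18 library. Mrpl44, whose protein has an RNase III-like fold, had the narrowest spread within groups of the 78, at 9.22 to 9.83 CPM in the 6 libraries.

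**Figure D3:**
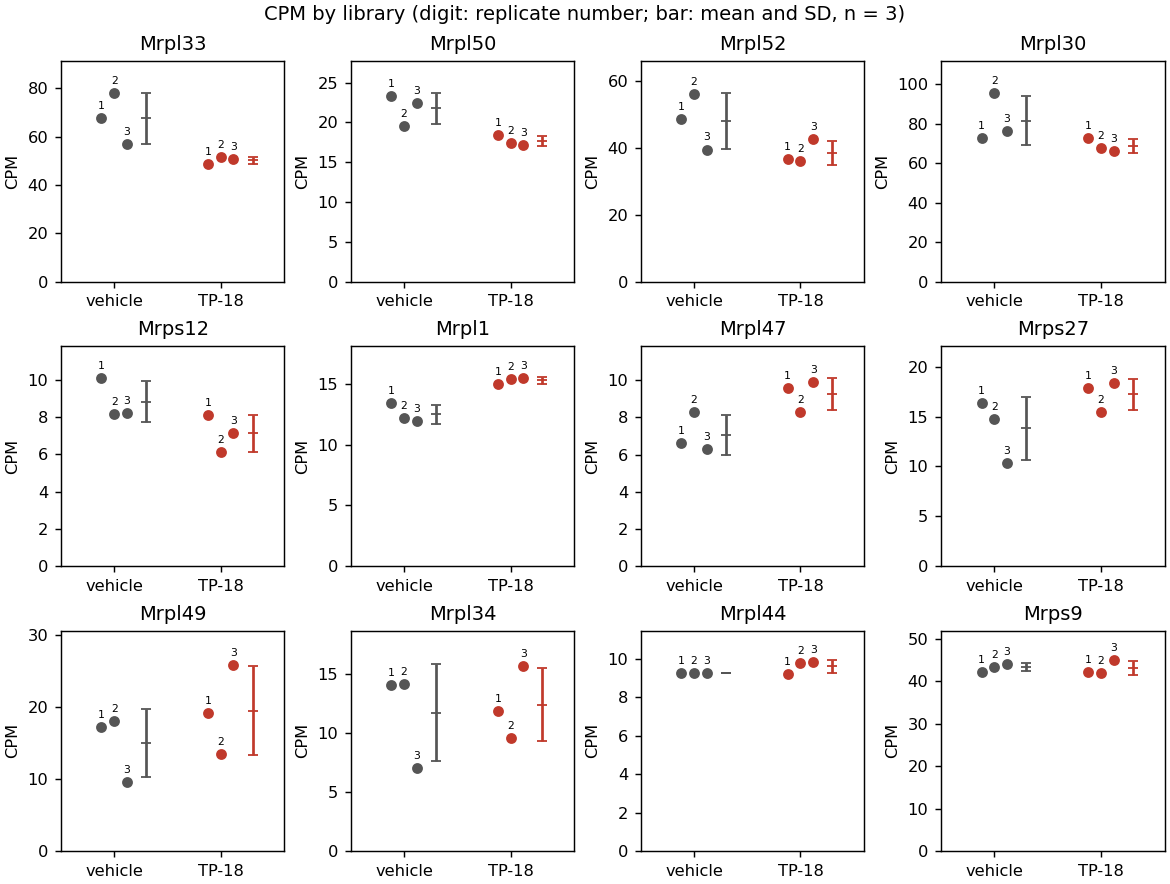
CPM of 12 genes in the 3 vehicle and 3 TP-18 libraries (points, with the replicate number above each), with the mean and SD of each group (bars, n = 3). Mrpl33, Mrpl50, Mrpl30, Mrps12 and Mrpl1 have groups that do not overlap, Mrpl49 and Mrpl34 the widest spread, and Mrpl44 and Mrps9 the narrowest.

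In the small subunit, the 4 genes of the body were all below 0 (median -0.15), without any passing the test. Mrps12, of the uS12 family at the decoding centre, where codon and anticodon are checked, had 10.1, 8.18 and 8.21 CPM under vehicle and 8.09, 6.13 and 7.15 CPM under TP-18. TP-18 1 was just below vehicle 2, so the groups did not overlap by a narrow margin, and the log2 fold change was -0.31 ± 0.22 (edgeR adjusted p = 0.511). The head, which swings as messenger RNA and tRNAs move, had 2 of 6 genes above and 4 below 0 (median -0.05). Mrps24 had 27.6 ± 6.50 and 23.6 ± 1.42 CPM, a log2 fold change of -0.22 ± 0.19, and Mrps7 had 31.0 ± 4.47 and 27.0 ± 3.10 CPM, a log2 fold change of -0.20 ± 0.17. The spread of Mrps24 in vehicle came from vehicle 2, at 35.1 CPM beside 24.0 and 23.8 CPM. Mrps9 was nearly level, at 42.1 to 45.1 CPM in the 6 libraries, with a log2 fold change of -0.01 ± 0.12.

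On the platform, which lines the path of the messenger RNA, 2 of 5 genes were above and 3 below 0 (median -0.04). Mrps11, of the uS11 family, had 11.1 ± 1.28 CPM under vehicle and 12.9 ± 1.70 CPM under TP-18. Mrps6 had the widest spread of the small subunit, with 39.3, 47.1 and 24.7 CPM under vehicle and 38.9, 30.2 and 34.9 CPM under TP-18. Vehicle 3 was the lowest and vehicle 2 the highest of all 6 libraries. Mrps15 and Mrps21 had log2 fold changes of -0.04 ± 0.21 and 0.04 ± 0.19.

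The 10 other genes of the small subunit that were classed as specific to mitochondria had 6 above and 4 below 0 (median 0.01). Mrps27, a pentatricopeptide repeat protein, a family that binds RNA, had 16.4, 14.8 and 10.3 CPM under vehicle and 17.9, 15.5 and 18.4 CPM under TP-18. TP-18 2 lay below vehicle 1, and the log2 fold change was 0.32 ± 0.21 (edgeR adjusted p = 0.486). An antisense transcript, 6430562O15Rik, covers 24.2% of its exonic bases. Mrps31 and Mrps35 followed with log2 fold changes of 0.24 ± 0.21 and 0.20 ± 0.20, also with overlapping groups. Mrps26 and Mrps25 were at -0.06 ± 0.14 and 0.01 ± 0.21. For Mrps25, 69.8% of the exonic bases are shared with Nr2c2, a nuclear receptor gene on the opposite strand. The sources used here do not say how reads from shared bases were counted.

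The symbol does not always name the subunit in which a protein sits. Mrps18a and Mrps30 are part of the large subunit in the mammalian mitoribosome, and Mrps36 is now known as a subunit of the alpha-ketoglutarate dehydrogenase complex. Assigned by structure, the medians were -0.02 for 51 large and -0.03 for 26 small subunit genes. The paralogs Mrps18a, Mrps18b and Mrps18c occupy separate sites, and their log2 fold changes were -0.03 ± 0.19, -0.07 ± 0.16 and -0.08 ± 0.14. Mrps30 had 38.9 ± 5.92 CPM under vehicle and 34.7 ± 3.46 CPM under TP-18, a log2 fold change of -0.17 ± 0.16, and Mrps36 was at -0.12 ± 0.21. The 46 proteins classed as conserved had a median log2 fold change of -0.02, and the 31 classed as specific to mitochondria also had a median of -0.02. These classes do not strictly follow descent: Mrps18a and Mrps18b are in the mitochondrial class and their paralog Mrps18c in the conserved class.

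Levels per length, in FPKM (counts scaled for gene length and library total, as deposited by the authors), spanned a wide range for proteins that enter one particle in equal numbers, apart from Mrpl12, which enters in several copies. The median over genes was 16.9 FPKM in the large and 18.1 FPKM in the small subunit. Mrpl33 was highest with 125 FPKM as a mean of the 6 libraries, followed by Mrpl52 with 105 and Mrpl13 with 64.9 FPKM. The highest of the small subunit were Mrps18c with 61.7, Mrps21 with 53.8 and Mrps26 with 49.8 FPKM. The lowest were Mrpl1 with 3.05, Mrpl14 with 3.15 and Mrpl4 with 3.78 FPKM, and in the small subunit Mrps25 with 3.74 FPKM. The gene lengths behind these values, derived from the deposited counts and FPKM, were short at the top, 466 bases for Mrpl33 and 412 for Mrpl52. They were long at the bottom, 4591 bases for Mrpl1, 7525 for Mrpl14 and 8356 for Mrpl4. Mrpl33 ranged from 110.0 to 156.1 FPKM over the libraries and Mrpl52 from 88.7 to 127.2 FPKM. These ranges overlapped, but Mrpl33 was above Mrpl52 in each of the 6 libraries. The range of Mrpl13, 45.8 to 82.5 FPKM, lay below both. The part of the assigned length in these levels was not tested.

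**Figure D4:**
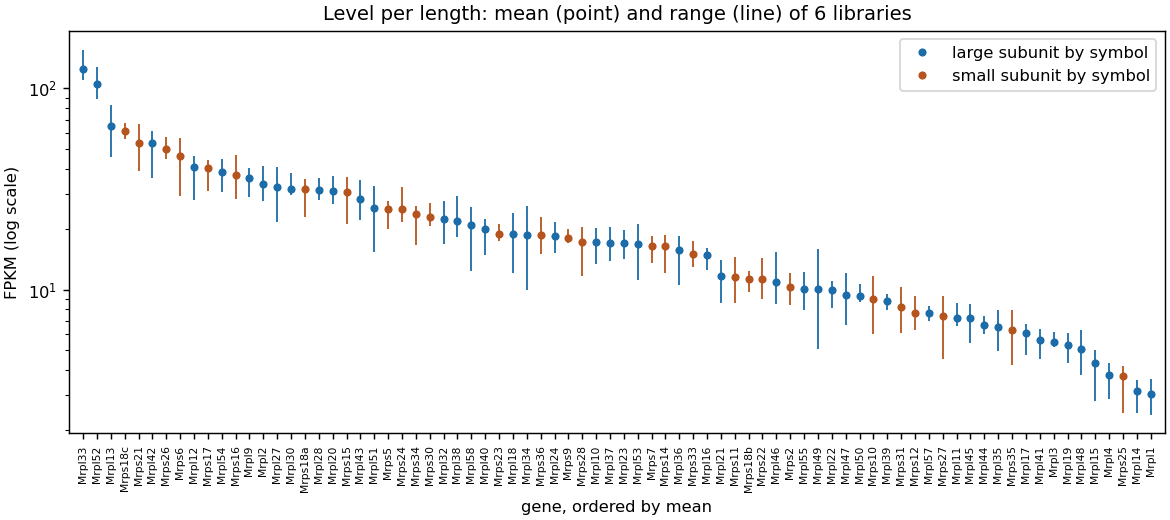
Level per length of each of the 78 genes in FPKM (log axis), as the mean (point) and range (line) of the 6 libraries, ordered by mean and coloured by subunit. The large subunit runs from Mrpl33 at 125 to Mrpl1 at 3.05 FPKM, and the small subunit lies within that range, from Mrps18c at 61.7 to Mrps25 at 3.74 FPKM.

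Within both groups, the 78 genes moved together from library to library. Mean deviations of log2 CPM from each gene's own mean were 0.07, 0.18 and -0.23 in vehicle libraries 1 to 3 and 0.06, -0.14 and 0.07 in TP-18 libraries 1 to 3. The subunits moved alike, with 0.18 in the large and 0.17 in the small subunit in vehicle 2 and -0.23 in both in vehicle 3. In summed level, the large subunit had 1463, 1569 and 1194 CPM under vehicle and 1402, 1243 and 1434 CPM under TP-18. The small subunit had 758.6, 831.8 and 628.3 CPM and then 755.0, 661.9 and 747.0 CPM. Vehicle 2 was the highest and vehicle 3 the lowest of the 6 in both subunits, so the vehicle group enclosed the TP-18 group. With library totals as the scaling it did not: TP-18 1 and TP-18 3 were then above every vehicle library, with 1478 and 1533 CPM against 1102 to 1466 CPM in the large subunit and 795.8 and 798.4 CPM against 580.0 to 777.4 CPM in the small subunit.

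Gene by gene, vehicle 3 was the lowest vehicle library in 63 of the 78 genes (80.8%), 41 of the large and 22 of the small subunit, against 35.7% of all tested genes. TP-18 2 was the lowest TP-18 library in 60 (76.9%), against 37.8%, and both held in 51 genes (65.4%), against 19.6%. Vehicle 2 was the highest vehicle library in 52 genes (66.7%), against 33.4%. The nearest lists showed it too. Of 81 respiratory chain and ATP synthase genes, vehicle 3 was the lowest vehicle library in 72 (88.9%), vehicle 2 the highest in 64 (79.0%) and TP-18 2 the lowest TP-18 library in 60 (74.1%). Of 84 cytosolic ribosomal protein genes, these counts were 62 (73.8%), 82 (97.6%) and 43 (51.2%), and each held for all 5 mitoribosomal proteins with other names. The genes without this pattern in vehicle 3 included Mrpl30, Mrpl44, Mrpl50, Mrps9, Mrps12 and Mrps23. Without vehicle 3, the median log2 fold change was -0.16 in the large and -0.14 in the small subunit, and the groups did not overlap in 25 genes, against 33.7% of all tested genes. Of the 25, 24 were lower in TP-18, the direction of 17.3% of all tested genes. Without vehicle 2 the medians were 0.06 and 0.05, so leaving out single libraries turned the direction of the medians.

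Several measures moved beside this pattern. The 78 genes are short, with a median length of 1412 bases against 3521 over all tested genes. The slope of log2 CPM on gene length over all tested genes was -0.13 per doubling in vehicle 2, where the 78 genes were highest, and 0.04 in vehicle 3 and 0.08 in TP-18 2, where they were lowest. It was -0.04 in vehicle 1, 0.03 in TP-18 1 and 0.01 in TP-18 3. With the trend on length and GC content removed, the mean deviations were 0.02, 0.01 and -0.20 in vehicle and 0.10, -0.03 and 0.11 in TP-18 libraries, so vehicle 2 was no longer high and vehicle 3 was still low. The median log2 fold changes were then 0.10 in the large and 0.16 in the small subunit, beside 0.04 over all genes in that fit, and again no gene passed the threshold.

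The 8 proliferation markers, all tested, had mean deviations of 0.07, -0.28 and -0.63 in vehicle and 0.43, -0.24 and 0.65 in TP-18 libraries, lowest in vehicle 3 and with TP-18 2 lowest of its group. Their summed level was 711.6 to 1090 CPM under vehicle and 857.6 to 1627 CPM under TP-18. The mean deviation of the macrophage markers was highest in vehicle 3, at 0.58, but the markers differed. Vehicle 3 was the highest vehicle library for 6 of the 10. Cd163 had 392.9 CPM there, against 19.1 to 133.8 CPM in the other libraries. Fcgr1, at 100.6 CPM, was lowest of the 6 libraries in vehicle 3, and Adgre1 and Csf1r were higher in vehicle 1. The summed level of the 8 fibroblast and pericyte markers was higher in every TP-18 library, with 741.7 to 1200 CPM under vehicle and 1487 to 1846 CPM under TP-18, and the groups of 6 of them did not overlap. The 5 detected neutrophil markers summed to 55.5 to 227.8 CPM and the 6 endothelial markers to 33.1 to 176.4 CPM, each without a separation by group. The 4 monocyte markers summed to 103.4 to 927.1 CPM. Their sum, like that of the neutrophil markers, was highest in vehicle 2, where Chil3 alone had 758.4 CPM. Vehicle 2 was the highest vehicle library for 3 of the 4 monocyte and 4 of the 5 neutrophil markers. Ccr2 had 11.7 to 31.1 CPM under vehicle and 32.6 to 111.7 CPM under TP-18, without overlap. Csf3r was lowest of the 6 libraries in vehicle 2, at 14.5 CPM. The 2 detected dendritic cell markers were low, and their sum was lower in every TP-18 library, with 6.61 to 10.8 CPM under vehicle and 3.28 to 4.42 CPM under TP-18, while Xcr1, Clec9a and Cd209a were too low to be tested. The 3 detected muscle and skin markers summed to 7.04 to 57.6 CPM. The 4 detected mast cell markers separated by group, with sums of 4.12, 0.189 and 1.12 CPM under vehicle and 16.1, 25.9 and 7.70 CPM under TP-18, and the groups of each of the 4 did not overlap. T and NK and B cell markers that could be tested summed to at most 17.6 and 8.19 CPM in any library, and Ms4a1, Ncr1 and Ms4a2 were too low to be tested. The part of gene length, of proliferating cells and of other cell types in the mitoribosomal pattern was not tested.

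**Figure D5:**
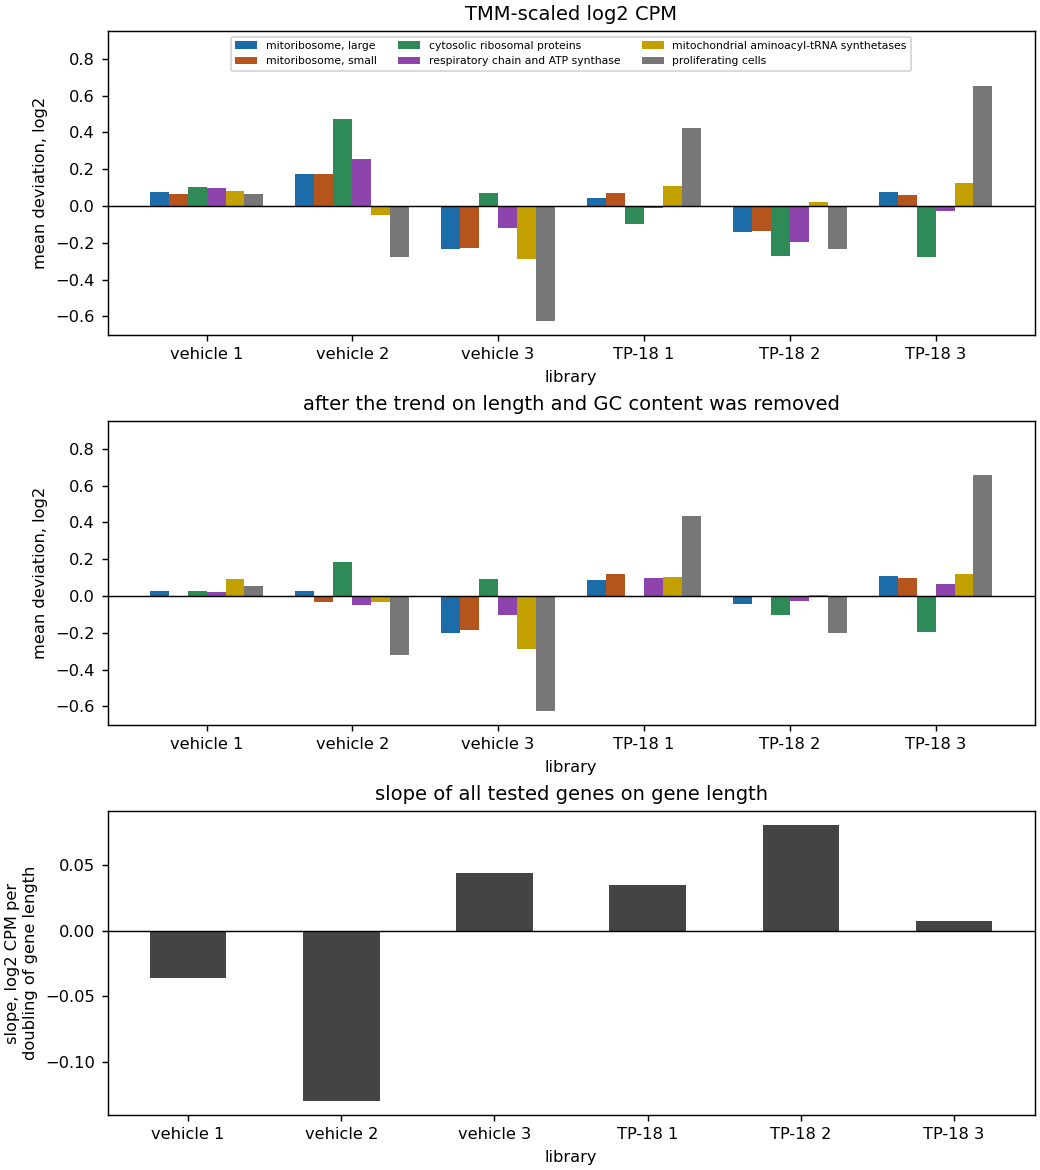
Mean deviation of log2 CPM from each gene's mean, by library, for the mitoribosomal subunits and 4 comparison lists (top), the same after the trend on gene length and GC content was removed (middle), and the slope of all tested genes on gene length (bottom). The mitoribosomal bars are at -0.23 in vehicle 3 and -0.14 in TP-18 2, and the bar of vehicle 2 at 0.18 shrinks to 0.03 or below in the middle plot.

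Other genes of mitochondrial gene expression were examined beside the 78, and none passed the test in edgeR. At an unadjusted p under 0.05 there were 2 of the aminoacyl-tRNA synthetases (10.0%) and 2 of the genes of mitochondrial transcription and RNA handling (15.4%). There were 0 in each of the 3 lists described first. Of all tested genes, 16.3% had such a p in either direction. DESeq2 called 0 in all of these lists. Of 5 mitoribosomal proteins with other names, 1 was above and 4 below 0 (median -0.06). Gadd45gip1, a large subunit protein, had 18.3, 19.5 and 16.4 CPM under vehicle and 21.9, 19.6 and 21.0 CPM under TP-18, without overlap and with a log2 fold change of 0.21 ± 0.15. The 25 genes of mitoribosome assembly and rRNA modification were divided 15 above to 10 below (median 0.05). The 13 tested translation factors were divided 12 to 1 (median 0.12), and the 20 mitochondrial aminoacyl-tRNA synthetases, which charge tRNAs with amino acids, 16 to 4 (median 0.21). Mars2, the methionyl-tRNA synthetase, had 8.63 ± 0.70 CPM under vehicle and 5.68 ± 0.57 CPM under TP-18, without overlap and with a log2 fold change of -0.60 ± 0.21 (edgeR adjusted p = 0.241). The 13 genes of mitochondrial transcription and RNA handling were divided 8 to 5 (median 0.25), with Trmt10c, a subunit of mitochondrial RNase P, at -0.52 ± 0.17 and Polrmt, the RNA polymerase, at 0.59 ± 0.23. Transcripts of the mitochondrial genome itself were not analysed here.

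Regulators of mitochondrial biogenesis had 2 of 10 genes above and 8 below 0 (median -0.17), with 3 at an unadjusted p under 0.05, all lower. Gabpb1, the beta subunit of GABP, whose ETS letters are shown for Mrpl33, Mrpl52 and Mrps27, had 42.0, 44.5 and 49.2 CPM under vehicle and 22.4, 21.8 and 26.8 CPM under TP-18. The groups were far apart, with a log2 fold change of -0.94 ± 0.15 and an edgeR adjusted p = 0.0818, above the threshold, and a DESeq2 adjusted p = 0.000143. Its DNA-binding partner Gabpa had 73.0 ± 8.82 and 70.0 ± 3.95 CPM, a log2 fold change of -0.06 ± 0.14. Myc, a transcription factor of growth, had 340.9, 400.4 and 395.2 CPM under vehicle and 203.5, 230.1 and 127.1 CPM under TP-18, at -1.02 ± 0.23 (edgeR adjusted p = 0.148, DESeq2 adjusted p = 0.00163). Pprc1, a coactivator, was at -0.47 ± 0.14 (edgeR adjusted p = 0.210) and Nrf1 at -0.26 ± 0.13 (edgeR adjusted p = 0.385). These values stand beside median log2 fold changes of -0.01 and -0.04 in the mitoribosomal subunits, and no relation between them was tested.

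Cytosolic ribosomal proteins and the respiratory chain are the lists nearest in function. All 84 cytosolic ribosomal protein genes were below 0 (median -0.45). At an unadjusted p under 0.05 there were 67 (79.8%), against 8.7% of all tested genes in the lower direction. There were 0 past the edgeR threshold and 7 past that of DESeq2. With library totals as the scaling 83 were below 0 (median -0.27), and with the length and GC trend removed 79 were (median -0.20). Of 81 genes of the respiratory chain and ATP synthase, 10 were above and 71 below 0 (median -0.20). The median was -0.03 with library totals and 0.04 with the trend removed, beside 0.20 and 0.04 over all genes. Relative to all genes, the respiratory chain list stayed at -0.23 under TMM and library totals, and was at 0.003 with the trend removed. The cytosolic list stayed at -0.47 under both scalings, and was at -0.24 with the trend removed. The difference between these lists and the mitoribosomal genes was not tested.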

How the data were processed

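The deposited table of counts per gene (17191 genes, 6 libraries) was made by the authors with fastp, HISAT2 and HTSeq on GRCm38, per the submitters' processing notes; versions, annotation and strand use are not stated there. FPKM values were deposited by the authors beside them. The length of each gene was derived from its count, the total of the library and its FPKM, as the median over libraries. With this single length per gene, the deposited FPKM values of all libraries were reproduced. The library kit, per the labels' protocols, was VAHTS Universal V6. Groups and replicate numbers follow the sample labels.

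Counts were fitted with edgeR 4.0.16 (R 4.3.3; minimum count 10, minimum total 15, TMM factors, quasi-likelihood test, no covariates), which left 12721 genes, with Benjamini-Hochberg adjustment over all of them and a threshold of 0.05. Standard errors were derived from the fold change and its F statistic. Positions, GC content and overlaps came from GENCODE M21 on GRCm38, matched for all 78 genes, and promoter windows from RefSeq (GRCm38.p6). Alternatives were other scalings and filters, DESeq2 1.42.0, limma 3.58.1 on voom values or on log2(FPKM + 1) and log2(FPKM + 0.1), a replicate block, removal of a smooth trend on gene length and GC content (mgcv 1.9.3), and each library left out. A limma fit on uncorrected log2 CPM was added after seeing the data. Members and lists were chosen with earlier results of these data known. Genes named were, per subunit, the 4 smallest p in each direction, the 3 highest and 3 lowest in FPKM and the 2 most variable, with Mrps18a, Mrps18b, Mrps18c, Mrps30, Mrps36, Mrpl12 and Mrpl58, and up to 3 of each related list by p, of which some are not reported here. Mrpl44, Mrpl46, Mrps9, Mrps23, Gabpa and Nrf1 were named after their values were seen. Figures used matplotlib 3.10.9 in Python 3.11.15.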

Additional observations from a re-analysis of the deposited data

How the results depend on the processing

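None of the 78 genes passed the adjusted threshold under any of the 18 alternatives, where the smallest adjusted p ranged from 0.166 to 0.580. With library totals as the scaling, 4 genes had an unadjusted p under 0.05, all higher (Mrpl1, Mrpl18, Mrpl43 and Mrpl47; 17.3% of all tested genes were so), the medians were 0.167 in the large and 0.136 in the small subunit, and 13 genes had groups that did not overlap, all higher (23.5% of all tested genes). Deposited FPKM values carry the same scaling: log2(FPKM + 1) gave 5 such genes (Mrps27 in addition, all tested genes 17.8%). The medians were 0.152 in the large and 0.142 in the small subunit beside 0.15 over all genes, with the same 23.5% beside 13 genes without overlap. With log2(FPKM + 0.1) there were 5 genes, all higher (all tested genes 17.3%), and medians of 0.162 and 0.151. With the trend on length and GC content removed, with or without the replicate block, 3 genes had an unadjusted p under 0.05, all higher (Mrpl47, Mrps18c and Mrps21; all tested genes 7.5% and, with the block, 7.68%), and the small subunit median was 0.155. Leaving out 1 library gave 0 to 3 genes with an unadjusted p under 0.05 (0 without TP-18 1, 3 without vehicle 3, namely Mrpl32, Mrpl33 and Mrpl52; all tested genes 9.05% and 12.8%), large subunit medians of -0.164 to 0.063, small subunit medians of -0.142 to 0.047, and 6 to 25 genes without overlap, where the share of all tested genes was 28.2% to 38.3%. Leaving out vehicle 2, vehicle 3, TP-18 1 or TP-18 2 moved that count to 13, 25, 9 or 14, beside 32.9%, 33.7%, 28.2% and 37.3% of all tested genes. With the replicate block alone, 1 gene, Mrpl33, had an unadjusted p under 0.05 and was lower, against 7.8% of all tested genes in that direction. The medians were then -0.013 in the large and -0.025 in the small subunit, and the smallest adjusted p was 0.298. Calls over all genes went from 14 to 3. Same-numbered libraries deviated with correlations of 0.161, 0.39 and -0.152, and vehicle 1 correlated best with TP-18 3 (0.496), so the labels' numbers were not taken as pairs. Of 32 named genes, 11 changed sign with library totals, with FPKM and with the trend removed, and none was called. All 78 genes were tested under each filter. Over all genes, edgeR called 14, DESeq2 499, and the other alternatives 0 to 27. With 3 libraries per group, a 1.5-fold change lay within the interval of every gene outside the 45 named above.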
